A study of Mus musculus with 13 samples.

Results

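A set of 10 germline genes that DNA methylation is known to silence in mouse was followed in CGR8 embryonic stem (ES) cells incubated with PhenDC3, a small molecule that binds and stabilises G-quadruplexes (G4), the four-stranded structures of guanine-rich DNA. The members are Dazl, Ddx4, Mael, Tex101, Sycp1, Sycp3, Stk31, Tdrd1, Asz1 and Tuba3a, a choice made by name, and each was found by its symbol among the 24079 genes of the RNA-seq count table. None was missing. CGR8 is a feeder-independent line of mouse ES cells, grown here on gelatin with LIF and serum. RNA was sequenced from 3 control libraries (0.5% DMSO for 48 h) and 3 libraries of cells incubated with 10 μM PhenDC3 for 48 h. PhenDC3 was also given in 0.5% DMSO, so the vehicle was the same in both groups. Replication origins of cells treated in the same way had been mapped by short nascent strand sequencing (SNS-seq), with 3 control and 2 PhenDC3 peak lists. All libraries came from asynchronous cultures of a single cell line, and no label ties an RNA library to its own culture, so the p-values below measure the spread between these libraries, which may be technical.

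Germline genes of this kind carry promoters rich in CpG dinucleotides that gain DNA methylation when the embryo implants. The methyl marks keep them silent in somatic tissues. In ES cells and in the early embryo the same promoters are also bound by the repressor complex PRC1.6 (with E2F6, MGA, MAX and L3MBTL2) and by histone H3K9 methyltransferases. Primordial germ cells erase the methylation, and the genes are then used for meiosis, for the germ granule and for the piRNA pathway, which defends the germline against transposons. DNA methylation itself was not measured in these samples.

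The promoters of 6 of the genes are shown because they span the range of CpG content and of RNA response described below. Dazl and Stk31 were the genes with more RNA after PhenDC3, Mael and Tdrd1 were those with less, Ddx4 had the most CpG and Tuba3a the fewest. Each sequence is the stretch of 250 bases before the RefSeq transcription start on GRCm38.p6 (the most upstream curated start where a gene has several), read 5′ to 3′ on the strand of the gene, with CpG dinucleotides in capitals. Dazl lies at chr17:50293621-50293870 (minus strand), Stk31 at chr6:49395289-49395538 (plus), Mael at chr1:166238745-166238994 (minus), Tdrd1 at chr19:56825959-56826208 (plus), Ddx4 at chr13:112652311-112652560 (minus) and Tuba3a at chr6:125286082-125286331 (minus).
Dazl: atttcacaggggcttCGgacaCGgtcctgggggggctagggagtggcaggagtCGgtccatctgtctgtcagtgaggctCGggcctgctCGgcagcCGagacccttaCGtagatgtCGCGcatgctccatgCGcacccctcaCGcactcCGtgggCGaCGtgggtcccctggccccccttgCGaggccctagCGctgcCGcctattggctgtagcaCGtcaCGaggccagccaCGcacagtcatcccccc
Stk31: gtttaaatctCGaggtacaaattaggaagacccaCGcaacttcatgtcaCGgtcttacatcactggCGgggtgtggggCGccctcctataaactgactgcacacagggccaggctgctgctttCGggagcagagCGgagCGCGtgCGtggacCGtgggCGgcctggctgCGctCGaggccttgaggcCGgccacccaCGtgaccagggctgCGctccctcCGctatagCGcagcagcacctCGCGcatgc
Mael: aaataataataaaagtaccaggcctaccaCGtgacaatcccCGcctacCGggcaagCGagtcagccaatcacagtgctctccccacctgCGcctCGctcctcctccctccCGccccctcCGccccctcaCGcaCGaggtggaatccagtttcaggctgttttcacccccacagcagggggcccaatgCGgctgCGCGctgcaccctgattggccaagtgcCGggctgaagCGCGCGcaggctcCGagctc
Tdrd1: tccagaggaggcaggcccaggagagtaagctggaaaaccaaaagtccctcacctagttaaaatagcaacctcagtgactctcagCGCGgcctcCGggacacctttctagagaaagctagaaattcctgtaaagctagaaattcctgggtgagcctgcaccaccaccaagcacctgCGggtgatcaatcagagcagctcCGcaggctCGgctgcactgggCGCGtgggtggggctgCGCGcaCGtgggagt
Ddx4: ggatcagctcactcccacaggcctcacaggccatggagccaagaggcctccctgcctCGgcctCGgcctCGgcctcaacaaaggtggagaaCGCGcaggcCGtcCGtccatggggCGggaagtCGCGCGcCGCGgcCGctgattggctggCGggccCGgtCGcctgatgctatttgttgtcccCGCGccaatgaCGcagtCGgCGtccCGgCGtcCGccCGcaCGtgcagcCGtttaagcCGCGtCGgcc
Tuba3a: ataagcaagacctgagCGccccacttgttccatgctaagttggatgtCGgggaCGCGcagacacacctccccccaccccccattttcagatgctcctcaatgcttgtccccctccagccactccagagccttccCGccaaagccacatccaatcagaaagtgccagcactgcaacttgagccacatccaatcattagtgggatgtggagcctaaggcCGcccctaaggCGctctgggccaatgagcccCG

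CpG dinucleotides were counted in a window of 300 bp that adds the first 50 bases after the start. The 10 windows held a median of 20.5 CpG. This compares with a median of 7 CpG over 27025 RefSeq promoter windows of mouse, and with 20 CpG over the 13949 windows of genes tested by RNA-seq. Ddx4 had 38 CpG, Stk31 had 29 and Dazl had 28. Mael had 24, Sycp1 had 21 and Tdrd1 had 20. Tex101 (19), Asz1 (17), Sycp3 (15) and Tuba3a (12) had the fewest, and Tuba3a also had the lowest observed over expected CpG ratio, 0.472. The germline promoters were thus richer in CpG than most promoters of the genome, and their median was close to that of expressed genes. The order of CpG content was not the order of the RNA response, since Stk31 and Dazl (higher) had neighbours Ddx4 (38 CpG, not called) and Mael (24 CpG, lower).

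**Figure D1:**
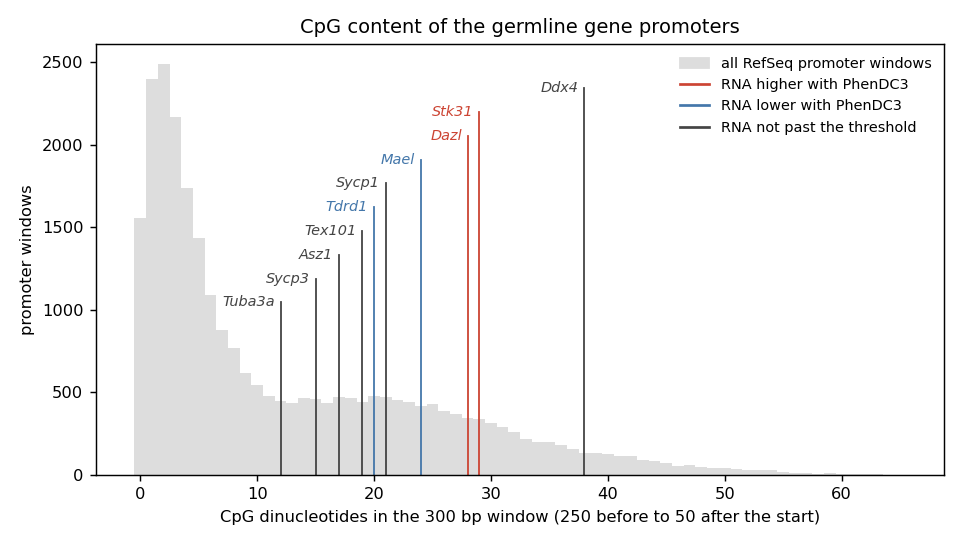
Number of RefSeq promoter windows of mouse (vertical axis, grey bars) by the count of CpG dinucleotides in a window of 300 bp (horizontal axis), with a vertical line at the count of each germline gene, coloured by its RNA response to PhenDC3. The line heights only keep the names apart. All 10 lines lie to the right of the median of 7 CpG, from Tuba3a at 12 to Ddx4 at 38.

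The motifs of 2 kinds of factor that act on germline promoters were searched on both strands of the same windows. CACGTG, the E-box of MAX partners, was present in 6 of the 10 windows, those of Ddx4, Mael, Sycp1, Sycp3, Stk31 and Tdrd1, against 7.24% of all windows and 10.0% of the windows of tested genes. Sycp3 had 2 copies. In the printed sequences it reads caCGtg and starts 223 bases before the start of Mael, 55 before Stk31, 29 before Ddx4 and 11 before Tdrd1. TCCCGC, a core of E2F sites, was present in 5 of 10 windows (Ddx4, Mael, Sycp1, Sycp3 and Tuba3a), against 20.1% of all windows and 35.8% of those of tested genes. The 2 motifs can share at most 1 base. Dazl, Tex101 and Asz1 held neither.

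As PhenDC3 binds G4, the windows were also searched for G4 motifs. A run of at least 3 guanines repeated 4 times with loops of 1 to 7 bases, on either strand, was found in the window of Mael alone (1 of 10), against 18.1% of all windows and 28.5% of those of tested genes. By the G4Hunter score, which rises with guanine runs on a strand and is taken over 25 bases, 3 of 10 windows reached the threshold of 2 (Mael with 2.56, Tuba3a with 2.16 and Sycp1 between them), against 18.3% and 27.8%. Dazl reached 1.80. Of these genes, Mael had less RNA after PhenDC3, while Sycp1 and Tuba3a were not called. These matches describe the letters of the windows and no G4 was measured there.

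All 10 genes passed the low-count filter and were tested by edgeR's quasi-likelihood test with Benjamini-Hochberg adjustment over 13972 genes (adjusted p at most 0.05). RNA levels are given as CPM, the counts scaled to a common library size by relative log expression. Of the members, 2 were higher with PhenDC3 (Dazl and Stk31), 2 were lower (Mael and Tdrd1) and 6 did not pass the threshold. The 4 genes called make up 40.0% of the members, close to the 36.8% called among all genes tested, of which 18.0% were higher and 18.7% lower. The 3 control and 3 PhenDC3 libraries did not overlap for 6 of the genes, 4 of them higher and 2 lower with PhenDC3, against 50.6% of all genes tested (25.0% higher and 25.6% lower). Of the 4 higher, Asz1 entered the test through the PhenDC3 libraries, and Sycp1 was only just apart (1.97 against 1.96 CPM). The median log2 fold change (PhenDC3 over control) of the 10 genes was 0.13, with 7 above 0 and 3 below, beside a median of 0.00964 over all genes tested. The members were called at a share near that of all genes and in both directions.

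**Figure D2:**
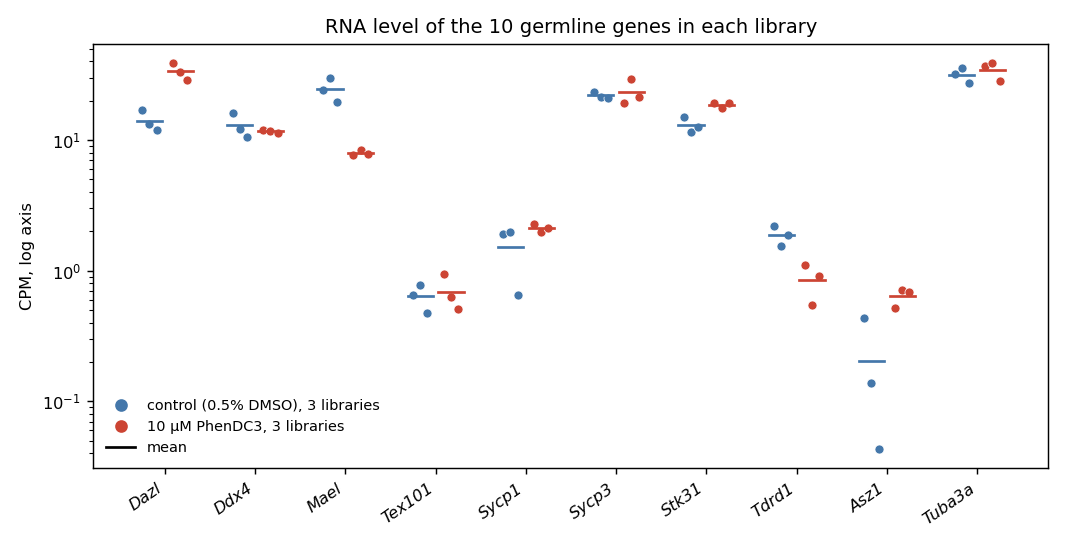
RNA level of each germline gene (CPM, log axis) in each of the 3 control libraries (0.5% DMSO, blue) and the 3 PhenDC3 libraries (10 μM, red), with the mean of each group as a line. The groups are apart for Dazl, Stk31, Sycp1 and Asz1, higher with PhenDC3, and for Mael and Tdrd1, lower with PhenDC3, and overlap for the other genes. Sycp1 is only just apart, and Asz1 entered the test through the PhenDC3 libraries.

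Facts of the libraries bear on all these values. The 6 libraries held 22232014 to 29486502 counts. The ribosomal RNA gene Rn45s took 2.55 to 5.70% of the counts in controls and 0.172 to 1.43% with PhenDC3, and its part in the results was not tested. Control 3 was the lowest of the controls for 8 of the 10 germline genes, and control 2 for the other two. Of 6 primitive endoderm markers, 4 were called higher (Gata4, Gata6, Sox17 and Pdgfra), beside 18.0% of all genes tested. The 6 markers summed to 47.4 CPM in control 3 and to 111 and 89.6 CPM in controls 1 and 2. With PhenDC3 they summed to 96.4 to 158 CPM. Without control 3 the 4 calls stood, with a log2 fold change of 1.14 for Dazl (adjusted p = 0.00156, edgeR), -1.77 for Mael (0.000162), 0.48 for Stk31 (0.0365) and -1.13 for Tdrd1 (0.0337).

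Markers of the cell states that could hold germline RNA were read as well. Their calls stand beside 18.0% of all genes tested called higher and 18.7% called lower. The 7 ES cell markers summed to 6966 to 7937 CPM in controls and 7933 to 9291 CPM with PhenDC3, with Nanog and Dppa5a higher and Pou5f1 and Tdgf1 lower. Of 7 primordial germ cell markers, several of which ES cells share, 4 were called higher (Prdm14, Dppa3, Kit and Tfap2c) and none lower. The list summed to 195 to 242 CPM in controls and 448 to 455 CPM with PhenDC3. Kit held the largest part of the sum, with a mean of 102 CPM in controls and 231 CPM with PhenDC3. The others, Nanos3 (log2 fold change -0.30), Dnd1 (-0.38) and Prdm1 (-0.47), had negative values and were not called. The 2-cell-like markers Zscan4c, Zscan4d, Zscan4f, Zfp352, Usp17lb and Tcstv3 rose (6 of 7 listed, with Tcstv1 not tested). Zfp352 and Usp17lb entered the test through the PhenDC3 libraries, where they are high. The list summed to 3.93 to 5.86 CPM in controls and 27.0 to 43.6 CPM with PhenDC3. Among 8 spermatocyte and spermatid markers, Prm1, Prm2, Acrv1, Akap4 and Pgk2 had 0 counts in all libraries and only Ldhc was tested, with a log2 fold change of 0.34 (adjusted p = 0.17, edgeR). Of 7 fibroblast markers, Lum and Dcn had 0 counts in all libraries and 3 were tested. Thy1 was called lower, with a mean of 5.03 CPM in controls and 2.02 CPM with PhenDC3. Col1a1 (log2 fold change 0.68) and Col1a2 (1.64) had positive values and were not called, and Col1a2 entered the test through the PhenDC3 libraries. The list summed to 5.88 to 6.84 CPM in controls, most of it Thy1, and 3.22 to 5.92 CPM with PhenDC3. The part of these cell states in the germline values was not tested, and in bulk RNA fewer cells with a transcript and less transcript per cell cannot be told apart.

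Levels can be compared between genes per kilobase of exon. In controls, Tuba3a (20.3 CPM per kb), Sycp3 (19.5) and Mael (15.8) lay above the median of 6.26 CPM per kb of all genes tested. Dazl (4.75), Ddx4 (4.53) and Stk31 (3.96) lay somewhat below it. Tex101 (0.602), Sycp1 (0.439), Tdrd1 (0.344) and Asz1 (0.118) were low. None of the genes was at 0 in any library, but all had passed a filter that requires reads, and Asz1 had 1 read in control 3. As Tuba3a, Sycp3 and Mael lay above the median, the name of silenced genes holds for these ES cells only in part. With PhenDC3 the level of Dazl moved from percentile 44.6 to percentile 62.4 of the genes tested, and that of Mael from percentile 69.7 to 45.5.

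Among the RNA-binding proteins that commit germ cells to their fate, Dazl rose and Ddx4 was not called. Dazl (chr17:50279393-50293620, minus strand, 11 exons) encodes a regulator of mRNA translation that licenses germ cells for gametogenesis. Its level was 16.9, 13.3 and 12.0 CPM in controls and 38.6, 32.8 and 28.9 CPM with PhenDC3. Every PhenDC3 library was above every control. The mean went from 14.1 ± 2.55 to 33.4 ± 4.88 CPM (SD, n = 3 each), 2.37-fold higher, with a log2 fold change of 1.25 (SE 0.17, 95% interval 0.87 to 1.63, edgeR adjusted p = 0.000754). Dazl kept this call in all 11 alternative analyses, with a log2 fold change between 1.13 and 1.40 and an adjusted p of at most 0.0051.

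Ddx4 (chr13:112598333-112652633, minus strand, 22 exons) encodes Vasa, the RNA helicase of the germ granule. Its level was 15.9, 12.2 and 10.6 CPM in controls and 11.9, 11.8 and 11.3 CPM with PhenDC3. The PhenDC3 values lay inside the range of the controls. The log2 fold change was -0.15 (95% interval -0.53 to 0.24, edgeR adjusted p = 0.531), and became 0.030 without control 1. At a similar level per kb to Dazl in controls, and with the most CpG in its promoter, Ddx4 thus had an interval that reaches neither the rise of Dazl nor the fall of Mael.

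The genes of the piRNA pathway and its granules did not move together. Mael (chr1:166201385-166238744, minus strand, 12 exons) encodes Maelstrom, which acts in piRNA-directed transposon silencing. Its level was 24.1, 29.9 and 19.5 CPM in controls and 7.70, 8.32 and 7.81 CPM with PhenDC3, so that all PhenDC3 libraries were below all controls. The mean went from 24.5 ± 5.24 to 7.94 ± 0.332 CPM (SD, n = 3 each), 3.08-fold lower, with a log2 fold change of -1.62 (SE 0.17, 95% interval -2.01 to -1.23, edgeR adjusted p = 0.000243). Mael was called in all 11 alternative analyses, with a log2 fold change between -1.77 and -1.46 and an adjusted p of at most 0.00243. Mael and Dazl, both with CpG-rich promoters, thus changed by the most among the called members and in opposite directions.

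Tdrd1 (chr19:56826171-56870012, plus strand, up to 26 exons) encodes a tudor-domain scaffold that binds PIWI proteins. It had 61, 34 and 43 reads in controls and 32, 13 and 25 with PhenDC3, or 2.21, 1.55 and 1.86 CPM against 1.11, 0.544 and 0.908 CPM. The groups did not overlap. Tdrd1 was 2.17-fold lower, with a log2 fold change of -1.12 (SE 0.32, 95% interval -1.85 to -0.39, edgeR adjusted p = 0.0239). The call was lost without control 1 (adjusted p = 0.0865), without PhenDC3 library 2 (0.0708) and without PhenDC3 library 3 (0.0599), with the same direction in each case.

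Asz1 (chr6:18050964-18109061, minus strand, 13 exons) encodes a germ granule protein of the mitochondrial surface needed for piRNA production. It was the least expressed member, with 12, 3 and 1 reads in controls and 15, 17 and 19 reads with PhenDC3. These are 0.434, 0.137 and 0.0432 CPM against 0.52, 0.711 and 0.69 CPM, and the groups did not overlap. Asz1 reached the count cutoff in 1 control and in 3 PhenDC3 libraries, and so entered the test through the PhenDC3 libraries. Its log2 fold change of 1.54 (SE 0.59, 95% interval 0.20 to 2.89) did not pass the threshold (edgeR adjusted p = 0.0702). Without control 1, which held 12 of the control reads, it was 2.77 with an adjusted p of 0.0172.

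Stk31 (chr6:49395506-49469506, plus strand, up to 24 exons) encodes a tudor-domain protein with a kinase domain found in germ cells. Its level was 14.8, 11.5 and 12.6 CPM in controls and 19.2, 17.4 and 19.0 CPM with PhenDC3. The groups did not overlap, and the 3 PhenDC3 libraries lay close together. Stk31 was 1.43-fold higher, with a log2 fold change of 0.51 (SE 0.14, 95% interval 0.20 to 0.83, edgeR adjusted p = 0.0192). The call was lost without control 2 (adjusted p = 0.057), without PhenDC3 library 1 (0.0811) and without PhenDC3 library 3 (0.062). Stk31 overlaps Gm17060 on the other strand, and the strand setting of the counting is not given in the sources used here.

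The synaptonemal complex genes Sycp1 and Sycp3, which build the protein axis between paired meiotic chromosomes, were not called. Sycp3 (chr10:88459587-88473236, plus strand, 9 exons), a component of the lateral element, had 23.3, 21.4 and 20.9 CPM in controls and 19.1, 29.3 and 21.3 CPM with PhenDC3. The highest and the lowest library both belonged to PhenDC3. The log2 fold change was 0.08 (95% interval -0.29 to 0.46, edgeR adjusted p = 0.72), and -0.11 without PhenDC3 library 2. The last exons of Sycp3 face Chpt1 on the other strand, whose mean rose from 8.56 to 18.4 CPM (log2 fold change 1.10, adjusted p = 0.00514, edgeR). Reads from the stretch where the genes overlap could be told apart only with a stranded count.

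Sycp1 (chr3:102818499-102936100, minus strand, 33 exons), the transverse filament, was much lower, with 1.92, 1.96 and 0.649 CPM in controls and 2.25, 1.97 and 2.11 CPM with PhenDC3. The lowest PhenDC3 library was only just above controls 1 and 2, while control 3 was far below the rest. The log2 fold change was 0.48 (95% interval -0.36 to 1.32, edgeR adjusted p = 0.342), and 0.12 without control 3. Sycp1 overlaps Gm33866 on the other strand.

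The remaining members, a sperm surface protein and a tubulin, were not called either. Tex101 (chr7:24668012-24672050, minus strand, 6 exons), a glycoprotein of germ cells needed for sperm function, had 18, 17 and 11 reads in controls and 27, 15 and 14 with PhenDC3. The log2 fold change was 0.13 (95% interval -0.71 to 0.97, edgeR adjusted p = 0.809), and it turned to -0.04 without control 3 and to -0.16 without PhenDC3 library 1. The interval is wide at these counts, so neither a rise nor a fall of the size of Stk31's was detectable at this depth.

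Tuba3a (chr6:125278270-125286081, minus strand, 5 exons) encodes an alpha-tubulin enriched in testis and was the most expressed member. Its level was 32.0, 35.7 and 27.1 CPM in controls and 36.6, 38.5 and 28.2 CPM with PhenDC3, and the groups overlapped. The log2 fold change was 0.12 (95% interval -0.23 to 0.48, edgeR adjusted p = 0.561). Its transcript shares 473 of 1460 stretches of 50 bases (32.4%) with that of its near copy Tuba3b, so reads of the pair may be split. Tuba3b had 17, 11 and 10 reads in controls and 57, 41 and 33 with PhenDC3, and rose by a log2 fold change of 1.64 (SE 0.33, edgeR adjusted p = 0.00503).

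**Figure D3:**
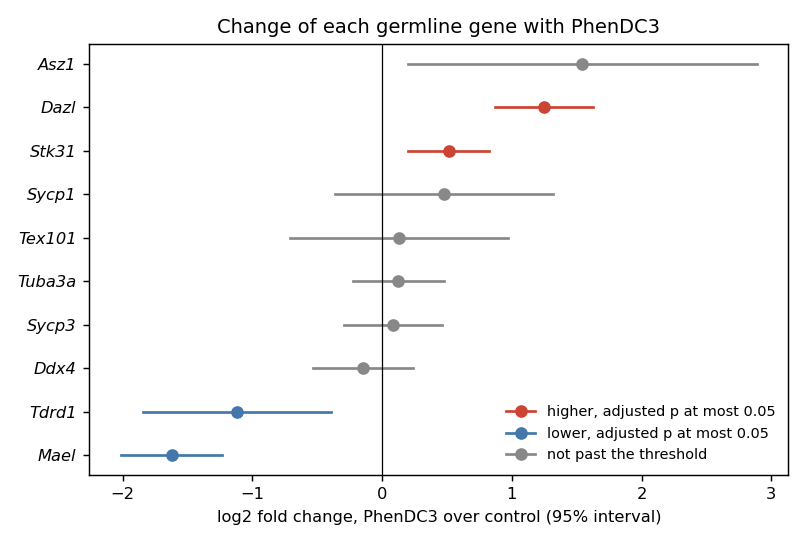
Log2 fold change of each germline gene (PhenDC3 over control, horizontal axis) with its 95% interval from the edgeR fit, coloured by the call at an adjusted p of at most 0.05. Dazl (1.25) and Stk31 (0.51) lie to the right of 0, Tdrd1 (-1.12) and Mael (-1.62) to the left, and the wide interval of Asz1 goes from 0.20 to 2.89.

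Other germline genes of the same pathways were read from the same fit. Among 15 further piRNA and germ granule genes, 13 were tested, 1 was higher, 3 were lower and 9 were not called (30.8% called), with a median log2 fold change of -0.35. Tdrd7, a tudor-domain granule protein, rose (1.31, SE 0.25, edgeR adjusted p = 0.00375). Piwil4, a PIWI protein of the nucleus, fell from 1.48 ± 0.444 to 0.415 ± 0.0753 CPM (SD, n = 3 each, log2 fold change -1.84, edgeR adjusted p = 0.00428) and entered the test through the controls. Tdrd12, a partner of PIWI proteins, fell from 21.7 to 11.9 CPM (-0.87, edgeR adjusted p = 0.00205). Gtsf1, another cofactor of PIWI proteins, had a log2 fold change of -0.86 (edgeR adjusted p = 0.0209), and its call was lost without control 1, PhenDC3 library 1 or PhenDC3 library 3 (highest adjusted p = 0.0916). Of the 13, 3 had a positive log2 fold change, and the number called lower (3 of 13) was near the 18.7% of all genes tested.

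Of 20 further genes of meiotic chromosomes, 19 were in the table, 16 were tested, 4 were higher, 1 was lower and 11 were not called (31.2% called), with a median log2 fold change of 0.25. Spo11, which makes the breaks of meiotic recombination, had 0 counts in all libraries. Stra8, the retinoic acid target that opens meiosis, had 46, 42 and 11 reads in controls and 152, 131 and 67 with PhenDC3 (log2 fold change 1.69, edgeR adjusted p = 0.0206). Sycp2, the partner of Sycp3 in the lateral element, had 26, 31 and 9 reads in controls and 78, 85 and 66 with PhenDC3 (1.65, edgeR adjusted p = 0.011), and entered the test through the PhenDC3 libraries. Both genes were lowest in control 3, as were 8 of the 10 members. The cohesin subunits Rec8 (0.82, edgeR adjusted p = 0.0183) and Smc1b (0.76, edgeR adjusted p = 0.0309) were higher as well. Syce2, of the central element, fell from 65.6 ± 11.5 to 26.5 ± 3.05 CPM (SD, n = 3 each, log2 fold change -1.31, edgeR adjusted p = 0.000403). The number called higher was 1 without control 1 or without PhenDC3 library 2. Stra8 lost its call without control 1, PhenDC3 library 1 or PhenDC3 library 2 (highest adjusted p = 0.0707), Rec8 without control 1 or PhenDC3 library 2 (0.0691), and Smc1b without control 1, control 3, PhenDC3 library 2 or PhenDC3 library 3 (0.115). The number called lower was 3 without control 3.

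Of 14 other genes enriched in germ cells, 12 were tested, 3 were higher, 2 were lower and 7 were not called (41.7% called), with a median log2 fold change of 0.11. Tuba3b is described above. Slc25a31, an ATP carrier of sperm mitochondria, rose from 2.02 ± 0.103 to 4.45 ± 0.343 CPM (SD, n = 3 each, log2 fold change 1.14, edgeR adjusted p = 0.00232). Taf7l, a germ cell subunit of the transcription factor TFIID, rose by 0.99 (edgeR adjusted p = 0.0168), a call lost without PhenDC3 library 2 (0.0618). Zcwpw1, a reader of histone marks at meiotic recombination sites, had a log2 fold change of -0.51 (edgeR adjusted p = 0.0182), lost without control 1, PhenDC3 library 1 or PhenDC3 library 3 (highest adjusted p = 0.0704). Mageb4 (-0.98, edgeR adjusted p = 0.0497), which entered the test through the controls, lost its call when any of the 6 libraries was left out (highest adjusted p = 0.167). The calls of the germline lists thus ran in both directions, with shares called from 30.8% to 41.7% around the 36.8% of all genes tested.

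**Figure D4:**
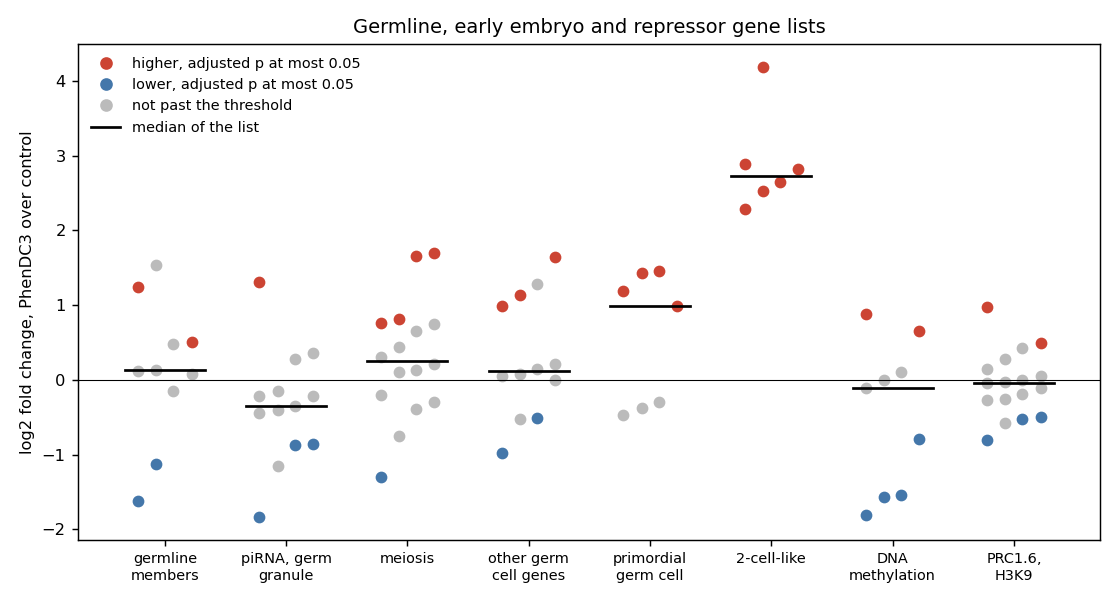
Log2 fold change (PhenDC3 over control, vertical axis) of each tested gene of 8 lists, coloured by its call at an adjusted p of at most 0.05, with the median of the list as a black line. The 10 germline members, the piRNA, the meiosis and the other germ cell genes spread on both sides of 0 (medians 0.13, -0.35, 0.25 and 0.11), whereas the 6 tested 2-cell-like markers, 2 of which entered the test through the PhenDC3 libraries, were higher (median 2.73).

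Factors that write, maintain or remove DNA methylation were read from the same libraries. Of 10 listed factors, 9 were tested, 2 were higher, 4 were lower and 3 were not called (66.7% called, beside 36.8% of all genes tested). The de novo methyltransferases Dnmt3b and Dnmt3a and their cofactor Dnmt3l fell from 437 ± 131 to 125 ± 23.5 CPM, from 166 ± 32.7 to 55.8 ± 11.7 CPM and from 526 ± 46.3 to 180 ± 34.6 CPM (SD, n = 3 each). Their log2 fold changes were -1.80, -1.57 and -1.55 (edgeR adjusted p = 0.000486, 0.000491 and 0.000189). Uhrf1, which guides maintenance methylation to newly copied DNA, fell by 0.79 on the log2 scale (edgeR adjusted p = 0.0183). Dnmt1, the maintenance methyltransferase, was not called (edgeR adjusted p = 0.98). Tet3 (0.88, edgeR adjusted p = 0.00498) and Tet2 (0.66, edgeR adjusted p = 0.00491), which oxidise methylated cytosine, rose. These 6 calls stood in all 11 alternative analyses. They were measured on RNA in the same 6 libraries as the germline genes, and a relation between the enzymes and the germline genes was not tested.

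The repressors that bind germline promoters were read in the same way. Of 17 subunits of PRC1.6 and of histone H3K9 methylation complexes, all were tested, 2 were higher, 3 were lower and 12 were not called (29.4% called, beside 36.8% of all genes tested). The RNA of E2f6, Mga, Max and L3mbtl2, which bring PRC1.6 to DNA or hold it together, was not called (edgeR adjusted p = 0.802, 0.373, 0.764 and 0.241). Rybp, a subunit shared with other PRC1 complexes, rose from 209 ± 15.9 to 411 ± 20.5 CPM (SD, n = 3 each, log2 fold change 0.97, edgeR adjusted p = 0.000321). Wdr5 rose by 0.49 (edgeR adjusted p = 0.0072). Ehmt2, the H3K9 methyltransferase G9a, had a log2 fold change of -0.80 (edgeR adjusted p = 0.00125), Tfdp1, the partner of E2F factors, -0.53 (edgeR adjusted p = 0.0102) and Pcgf6, the subunit that defines PRC1.6, -0.49 (edgeR adjusted p = 0.00949). These 5 calls stood in all 11 alternative analyses.

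SNS-seq peaks gave another readout at the same genes. In this assay, short nascent DNA strands protected by their RNA primer are sequenced, and a peak marks a site where replication started in part of the cells. A deposited peak within 2 kb of a transcription start was found in at least 2 control lists for 8 of 10 germline genes, beside 46.3% of 23937 genes and 62.2% of the genes tested by RNA-seq. Both PhenDC3 lists held such a peak for 6 of the 10, beside 32.5% and 41.5%. Control list 3, the smallest list, had no such peak for 7 of the 10 genes, of which Asz1 and Tex101 had none in any control list. The share of all genes without such a peak in this list is not given here. The lists held 79377 (control 3) to 120882 peaks in controls and 102400 and 144103 peaks with PhenDC3. With only the stronger peaks, those above the median -log10 p of their own list, the counts were 4 of 10 in controls, beside 33.6% of all genes and 46.4% of those tested, and 3 of 10 with PhenDC3, beside 19.2% and 25.1%. Without control list 1 the count in controls was 3, beside 26.8% of all genes, and without control list 2 it was also 3, beside 26.9%. As only 3 and 2 lists exist, and the series holds a separate RNase-treated library for each condition, no test was made between conditions. Summit positions are given from the nearest curated start. For Stk31 (2 starts) and Tdrd1 (4 starts) this can differ from the start of the printed sequence.

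Mael, whose RNA fell, kept its peak in all 5 lists, with summits 229 to 280 bp before the start in controls and 232 and 238 bp before it with PhenDC3. The printed sequence covers the 250 bases before the start, so 4 of these 5 summits lie near its upstream end and that of control list 1 (280 bp) lies just outside it. The control lists gave it a fold enrichment of 8.67, 6.30 and 5.80, and the PhenDC3 lists one of 4.05 and 5.64. Dazl, whose RNA rose, had several peaks around its start in control lists 1 and 2 (the strongest 128 bp before the start, fold enrichment 13.0), none in control list 3, a peak 146 bp before the start in PhenDC3 list 1 (5.71) and one 1931 bp before it in PhenDC3 list 2 (6.70). Peaks near the start were thus present in both conditions at a gene whose RNA rose and at one whose RNA fell.

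Sycp3 had the peaks of highest fold enrichment among the members, whereas by -log10 p the first was that of Dazl in control list 1 (75.4). Its main peak lay 463 to 500 bp after the start in controls (fold enrichment 16.2, 12.3 and 16.4) and 470 and 524 bp after it with PhenDC3 (12.8 and 8.21). By -log10 p it stood at percentile 96.6, 93.2 and 96.1 of its list in controls and at 99.7 and 99.1 with PhenDC3. Stk31 also had a peak in all 5 lists, with summits 67, 84 and 101 bp after the start in controls (fold enrichment 7.37, 5.92 and 5.88). With PhenDC3 its summits lay 84 and 428 bp after the start in list 1 (4.96 and 3.57) and 449 bp after it in list 2 (3.11). The fold enrichment at Mael, Sycp3 and Stk31 was lower in PhenDC3 lists than in most control lists, on scales that may differ by the RNase-treated library. The median -log10 p of a list was also lower with PhenDC3 (13.65 and 13.96) than in controls (15.31 to 17.09). By rank, the main Sycp3 peak stood higher with PhenDC3. Mael stood at percentile 49.2 and 87.2, against 91.6, 82.7 and 70.9 in controls. The highest-ranked Stk31 peak of each list stood at 67.8 and 1.63, against 87.5, 79.1 and 58.9.

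Peaks in one condition only were found at Ddx4 and Tex101, and peaks at different positions in each condition at Sycp1. Peaks in some lists of both conditions were found at Tdrd1 and Tuba3a. None of these differences can be tested with 3 against 2 lists. Ddx4 had peaks in control lists 1 and 2 (329 and 389 bp after the start, fold enrichment 3.53 and 5.01, with a further one 476 bp before it in list 2) and in no PhenDC3 list. Tex101 had a peak in both PhenDC3 lists (579 and 624 bp after the start, 5.34 and 5.42) and in no control list. Sycp1 had a peak after its start in control lists 1 and 2 (388 and 432 bp, 7.87 and 3.39) and one before its start in both PhenDC3 lists (950 and 870 bp, 3.75 and 6.60). Neither Ddx4, Tex101 nor Sycp1 was called by RNA-seq. Tdrd1 (295 and 315 bp after the start, 3.90 and 3.92) and Tuba3a (271 and 259 bp before it, 3.17 and 3.10) had peaks in control lists 1 and 2 and in PhenDC3 list 1 only. Asz1, the least expressed member, had no peak within 2 kb in any list.

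**Figure D5:**
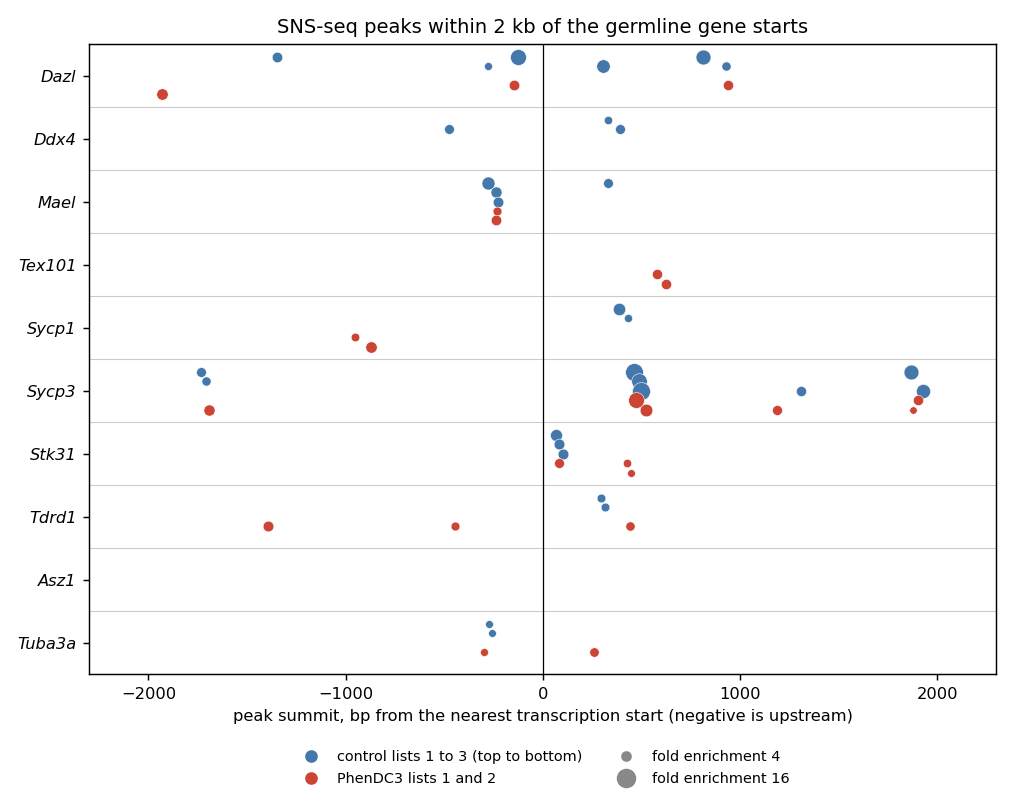
Position of each SNS-seq peak summit within 2 kb of the start of each germline gene (bp, negative is upstream), with 1 line of points per list, controls in blue and PhenDC3 in red, and a point area that grows with fold enrichment. Mael, Sycp3 and Stk31 have points in all 5 lists, Asz1 has none, and the largest points belong to Sycp3.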

How the data were processed

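RNA-seq of CGR8 ES cells was set up as 3 control libraries (0.5% DMSO) and 3 libraries with 10 μM PhenDC3, with 22232014 to 29486502 reads counted per library. The deposited values were raw counts per gene, made by the authors with TopHat 2.1.1 and Bowtie2 2.2.9 on mm10 and HTSeq-count 0.6.1p1 from a stranded poly(A) kit. The annotation and the strand setting of the counting are not given in the sources used here. The deposited SNS-seq peak lists, called by the authors per replicate with MACS2 2.1.0 against the RNase-treated library and kept where SICER found a region, hold fold enrichment (a ratio) and -log10 p.

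Counts were tested with edgeR 4.0.16 (R 4.3.3, RLE normalization, filterByExpr with a minimum of 10 counts, robust quasi-likelihood test, Benjamini-Hochberg adjustment over 13972 genes). The SE is the log2 fold change divided by the root of the F statistic. Of 24079 genes, 5231 had 0 counts in all libraries. In all, 5135 genes were called, and 6560 had an unadjusted p under 0.05. Alternatives were TMM, DESeq2 1.42.0, no filter, a mean CPM of at least 1, a replicate block and leaving out each library. The steps were tested on simulated data. Promoters and gene positions were read from RefSeq on GRCm38.p6, the build of the files, for all 10 members.

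The members, the other gene lists and the tests were chosen with earlier results of these data known, so no list was tested as such. All members were named whatever their values. Of the other germline, methylation and repressor lists, the called genes were named, at most the 5 largest rises and 5 largest falls per list, and marker lists were given as counts and summed CPM with their called genes. Genes named beyond this (Chpt1, Dnmt1, E2f6, Mga, Max, L3mbtl2, Spo11, Ldhc and markers that were not called) were chosen after their values were seen. The deposited tables of the authors' own comparison and of normalized counts were not used, and intervals cover the spread between libraries only.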

Additional observations from a re-analysis of the deposited data

How the results depend on the processing

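Dazl and Mael kept their direction and call under all 11 alternatives run (TMM, DESeq2, no filter, mean CPM of at least 1, replicate block and each of the 6 libraries left out). The cause was not tested for any of the changes that follow. Leaving out a library gave 1 to 3 members higher and 1 to 2 lower, 1709 to 2689 genes higher and 1623 to 2727 lower over all genes (the lowest count lower without PhenDC3 library 1), 1 to 4 higher and 1 to 3 lower in the meiosis list, 1 to 2 higher in the piRNA list and 0 to 2 lower in the other germ cell list. Among members not called, the log2 fold change of Ddx4 went from -0.28 to 0.030 (without control 1), that of Tex101 from -0.16 (without PhenDC3 library 1) to 0.31 and that of Sycp3 from -0.11 (without PhenDC3 library 2) to 0.21, Tex101 also turning without control 3 (-0.04). DESeq2, no filter and a mean CPM of at least 1 each gave 1 gene lower in the other germ cell list, and the last gave 2 higher in the piRNA list and no value for Asz1, Tex101, Piwil4 and Mageb4, which were filtered out. With the replicate block, 3797 genes were higher (3692 lower), 2 were higher in the piRNA list, 2 lower in the meiosis list and 6 lower among the repressors, 3 members were higher, with Asz1 added (adjusted p = 0.0312), and Mageb4 was lost (0.0516). Same-numbered libraries correlated by 0.0904, 0.544 and 0.405 in their deviations from the group means. As the first is under 0.1 the numbers were not taken as pairs, although each library correlated best with its own number. The column names also give the control and PhenDC3 library of the same replicate consecutive numbers. No label states a shared culture or day, so pairing remains possible, and the replicate block is the fit that allows for it. The median log2 fold change of all genes stayed between -0.00375 and 0.0142, and 47.5 to 51.3% of calls were higher. SNS-seq peaks near the start were found for 4 (controls) and 3 (PhenDC3) members among the stronger peaks. When a control list was left out, the count in controls was 3 to 8, beside 35.4 to 58.4% of genes tested. Leaving out a PhenDC3 list kept only 1, so a peak in that list sufficed. The count was then 6 without list 1, beside 46.0% of genes tested, and 8 without list 2, beside 64.3%. Within 1 kb the counts were 8 in controls, beside 56.9% of genes tested, and 5 with PhenDC3, beside 33.9%. Depth limits members with few reads, such as Asz1 (1 to 19 reads a library) and Tex101 (11 to 27 reads).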
